A study of Mus musculus with 12 samples.

Results

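The ADAM, ADAMTS, MMP and TIMP genes were compared between brainstem microglia (BSM), the resident macrophages of the brainstem, and bone marrow monocytes (BMDM), a related myeloid cell made in the bone marrow. Members were all genes whose row on the array carried a single platform symbol starting with Adam, Adamts, Mmp or Timp followed by a number. This gave 72 of the 18465 genes with a single symbol in the main table, namely 27 Adam, 19 Adamts, 22 Mmp and 4 Timp genes, each with 1 row. In a second table made from the same arrays, 61 of 14860 such genes were members. Adam17, the sheddase of tumour necrosis factor, was not analysed here.

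These families act on the outside of the cell. ADAM proteins sit in the membrane and cut the outer part off neighbouring membrane proteins, a step called shedding, although some members have lost protease activity and serve in adhesion or sperm function. ADAMTS proteins are secreted and cut proteoglycans, procollagens and other matrix proteins, MMPs cut matrix and surface proteins either in solution or from the membrane, and TIMPs bind to these proteases and block them. In the brain such enzymes are known for remodelling the matrix and the vessel wall, and microglia are one of their sources.

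The study sorted both cell types from C57BL/6 mice aged 6 weeks to find genes that tell them apart, and hybridized amplified RNA to Affymetrix Mouse Exon 1.0 ST arrays. The study's results describe the sorted BSM as CD11b+, Ly6G-, with low CD45 and low CD115. They describe BMDM as CD11b+, Ly6G-, CD115+ and high in CD45. The gates in its methods name neither CD115 for BSM nor CD45 for BMDM. There were 3 BSM arrays and 3 BMDM arrays, each with RNA of a separately collected pool of untreated mice that had no genetic change named in the labels. By the labels, the pools of replicate 1 were female and those of replicates 2 and 3 were male. The study's main text describes male mice, while its supplement lists the replicate 1 pools as female. The replicate 1 pools were also used for the study's sequencing, and the other pools were additional sets made for the arrays. Sex therefore cannot be told apart from the collected set. Bulk RNA of sorted cells cannot tell fewer cells of a type from less RNA per cell.

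Values are log2 intensities from the Aroma table unless the Expression Console table is named, and differences are BSM minus BMDM. A gene was called where limma gave an adjusted p under 0.05 over all 21837 rows. All 9 measured microglia markers were called higher and all 9 measured monocyte markers were called lower in BSM. These lists were chosen with earlier results of these data known, so the counts describe the arrays and do not test the labels. Of the genes behind the sort, Itgam (CD11b) and Csf1r (CD115) were higher in BSM, while Ptprc (CD45) and Ly6g were lower. The median intensity lay between 48.8 and 52.1 on the BSM arrays and between 42.8 and 45.2 on the BMDM arrays, and the median difference of all rows was 0.18.

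The members with the largest differences were Adamts1, Mmp14 and Timp2, which were higher in BSM, and Mmp8, which was lower. Their RefSeq promoters (build GRCm38.p6) are shown because these 4 genes carry the main contrast, and in each of them the 250 bases before the start of the gene are printed 5′ to 3′ on the strand of the gene. Capitals mark matches, on either strand, to 5 short motifs in which N stands for any base. The AP-1 motif was searched as TGANTCA. The motif of PU.1, a myeloid factor, was searched as GAGGAA and that of C/EBP as TTGCNNAA. The GC box was searched as GGGCGG, and the TATA box was searched as TATAAA. The marked matches do not overlap, and those of Mmp14 adjoin. The Adamts1 stretch is chr16:85803114-85803363 (minus strand), that of Mmp14 is chr14:54431348-54431597 (plus strand), that of Timp2 is chr11:118355412-118355661 (minus strand), and that of Mmp8 is chr9:7558179-7558428 (plus strand).
Adamts1: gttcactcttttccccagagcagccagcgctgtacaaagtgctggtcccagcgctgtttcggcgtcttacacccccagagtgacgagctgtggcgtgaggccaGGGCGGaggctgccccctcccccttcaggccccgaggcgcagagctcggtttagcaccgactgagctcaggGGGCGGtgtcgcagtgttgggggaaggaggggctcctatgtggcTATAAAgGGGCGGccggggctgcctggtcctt
Mmp14: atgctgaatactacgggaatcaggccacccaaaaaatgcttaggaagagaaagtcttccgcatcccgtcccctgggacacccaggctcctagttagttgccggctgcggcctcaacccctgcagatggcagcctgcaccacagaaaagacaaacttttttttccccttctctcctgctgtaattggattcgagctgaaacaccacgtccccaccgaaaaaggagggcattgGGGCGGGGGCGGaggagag
Timp2: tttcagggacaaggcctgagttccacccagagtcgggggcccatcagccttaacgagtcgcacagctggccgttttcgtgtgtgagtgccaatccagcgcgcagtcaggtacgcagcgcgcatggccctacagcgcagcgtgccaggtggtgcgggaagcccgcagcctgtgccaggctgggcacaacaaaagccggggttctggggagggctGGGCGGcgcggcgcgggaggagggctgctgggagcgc
Mmp8: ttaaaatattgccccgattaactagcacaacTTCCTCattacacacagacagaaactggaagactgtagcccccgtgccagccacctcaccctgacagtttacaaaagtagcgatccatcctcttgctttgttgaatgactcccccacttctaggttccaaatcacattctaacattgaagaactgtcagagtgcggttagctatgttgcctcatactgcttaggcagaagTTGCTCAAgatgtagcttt

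The 3 promoters of genes higher in BSM held GC boxes, with 3 in Adamts1, 2 in Mmp14 and 1 in Timp2, and the Mmp8 promoter held none. Adamts1 also had a TATA box starting 32 bases before the start of the gene. Mmp8 alone among these 4 held a C/EBP match, which started 19 bases before the start, and a PU.1 match on the opposite strand at 219 bases. Their G and C content was 65.6% in Adamts1, 55.2% in Mmp14 and 68.0% in Timp2, against 44.8% in Mmp8. Among 32851 promoters of the same length, a GC box occurred in 32.7%, a PU.1 match in 23.3%, a TATA box in 12.4%, a C/EBP match in 9.6% and an AP-1 match in 6.7%. A match describes these letters and is not a measured binding site. Of the 72 members 41 had an entry in the promoter table, and of the 10 members that differed at least 2-fold 6 had one.

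Across the 4 families, 40 members were called higher in BSM and 8 lower, and 24 were not called. As a share of members this was 55.6% higher and 11.1% lower, while among all rows tested 28.0% were called higher and 21.6% lower. The median difference of the members was 0.32. With a difference of at least 2-fold beside the call, 7 members were higher (9.72%) and 3 were lower (4.17%), against 6.81% and 9.24% of all rows. The values of BSM lay above those of BMDM on every array for 49 members and below them for 8, and they overlapped for 15, whereas 60.8% of all rows did not overlap.

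The 33 members that were higher by less than 2-fold formed a narrow band of differences between 0.28 and 0.97. Of the 33, 30 lay below the median level of all rows (5.63), as did 57 of all 72 members. The calls of the 33 moved with the scaling of the arrays. Once each array was centred on its median, 8 of the 33 were still called higher, and in all 15 members (20.8%) were higher and 9 (12.5%) lower, against 14.9% and 26.5% of all rows. Of the 33, 26 were also measured in the Expression Console table and 2 of those were called higher. There, 9 of 61 members were higher (14.8%) and 7 lower (11.5%), against 8.38% and 20.5% of all rows, and at 2-fold or more 7 members were higher (11.5%) and 4 lower (6.56%), against 4.29% and 10.6%.

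**Figure D1:**
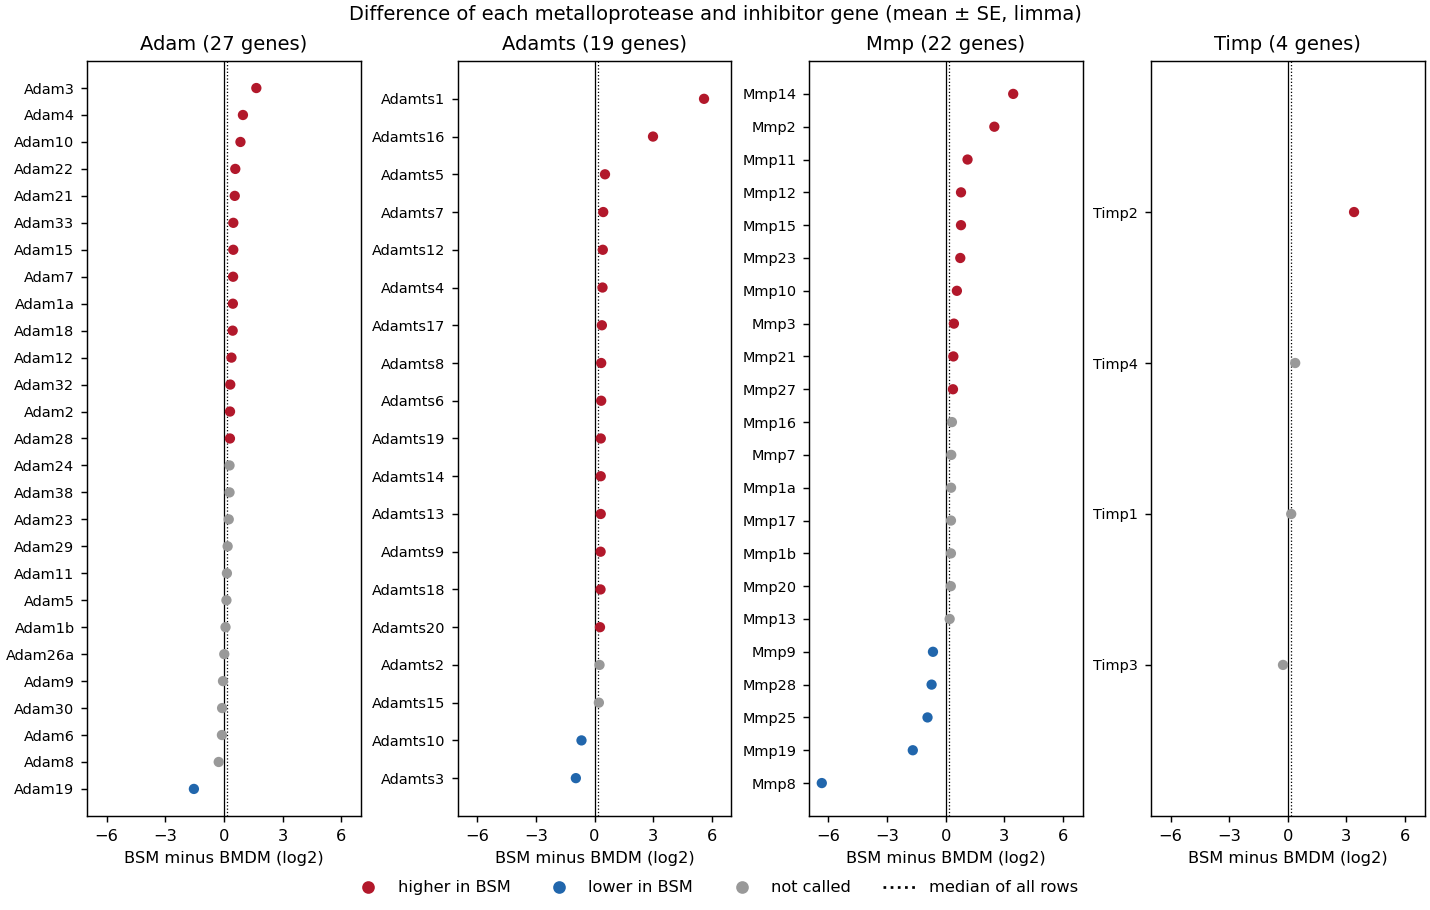
Difference in log2 intensity (x axis, BSM minus BMDM) of the 72 members by family, with the limma standard error as a bar that is often hidden by the point. Red points were called higher in BSM, blue points lower and grey points were not called, and the dotted line is the median of all rows at 0.18, near which most members lie.

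The calls that held in every setting in which the gene was tested came to 17, with 10 members higher and 7 lower. The share of all rows that held in every setting was not counted, so whether these counts are high or low cannot be said. The 10 were Adam3, Adam4, Adam10, Adamts1, Adamts16, Mmp2, Mmp11, Mmp14, Mmp15 and Timp2, and the 7 were Adam19, Adamts3, Adamts10, Mmp8, Mmp19, Mmp25 and Mmp28. All 10 members with a called difference of at least 2-fold were among these 17 calls. Mmp15, Adamts3 and Mmp25 were tested in 15 of 17 settings, without the Expression Console table and the filter on dim rows. Adam3, Adam4 and Mmp11 were tested in 16, without that filter.

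Among the 27 Adam genes, 14 were higher, 1 was lower and 12 were not called, and the median difference was 0.31. The shares of all rows were 28.0% higher and 21.6% lower. After centring 4 Adam genes were higher and 2 lower, against 14.9% and 26.5% of all rows. The Expression Console table held 25 Adam genes, of which 3 were higher and 2 lower, against 8.38% and 20.5% of its rows. Adam10 and Adam15 were the Adam genes with a mean level of at least 8. Adam10 is the sheddase that cuts Notch receptors, the amyloid precursor protein and Trem2. Adam10 stood at 9.86, 9.98 and 9.86 on the BSM arrays, against 9.08, 9.06 and 9.03 on the BMDM arrays. All BSM arrays were above all BMDM arrays, with little spread within either cell type. The difference was 0.84 (SE 0.09, 1.79-fold, adjusted p = 0.000128), and 0.58 in the Expression Console table (adjusted p = 0.028).

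Adam15, a membrane protease with an integrin-binding domain, differed less. Its values were 9.49, 9.65 and 9.76 in BSM and 9.19, 9.08 and 9.20 in BMDM. The cell types did not overlap, but the gap was 0.48 (SE 0.11, adjusted p = 0.00699), and it was not called after centring (0.29, adjusted p = 0.0887) or in the Expression Console table (0.16, adjusted p = 0.437). Adam9, a widely expressed sheddase, was close to equal at 7.44 in BSM and 7.49 in BMDM (adjusted p = 0.732). Adam8, a leukocyte sheddase, averaged 5.51 in BSM and 5.78 in BMDM (adjusted p = 0.115), and was called lower in the Expression Console table, with a difference of -0.39. Both were chosen after their values were seen.

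Adam19, known as meltrin beta and a sheddase of neuregulin, was the Adam gene called lower in BSM. It stood at 5.37, 4.91 and 5.09 on the BSM arrays, against 6.72, 6.90 and 6.37 on the BMDM arrays. All BMDM arrays lay above all BSM arrays, and BMDM replicate 3 was the lowest of them. The difference was -1.54 (SE 0.17, 2.91-fold lower, adjusted p = 0.000122).

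Of the genes known mainly from testis or epididymis, 17 were measured. They were 16 members and Adam6b, which the platform lists under another symbol. Called higher in BSM were 8 of the 17, beside 28.0% of all rows, and 9 were not called, while 2 of 14 were higher in the Expression Console table. Adam3, a sperm surface protein needed for fertilization in the mouse, had the largest difference of all Adam genes. It measured 5.44, 5.46 and 5.45 in BSM and 3.81, 3.81 and 3.77 in BMDM. Values within each cell type were almost the same, and the difference was 1.66 (SE 0.09, 3.15-fold, adjusted p = 1.59e-06). Its neighbours Adam18 and Adam5, also of this group, differed by 0.44 (called) and 0.13 (adjusted p = 0.394). Adam4, a further testis member named after its value was seen, differed by 0.97 (SE 0.12) and overlaps Cox16, which was not analysed here.

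Among the 19 Adamts genes, 15 were higher, 2 were lower and 2 were not called, with a median difference of 0.32. The shares of all rows were 28.0% higher and 21.6% lower. After centring, 3 Adamts genes were higher and 2 lower, against 14.9% and 26.5% of all rows. The Expression Console table held 12 Adamts genes, of which 2 were higher and 1 lower, against 8.38% and 20.5% of its rows. The 7 proteoglycanases include Adamts1, which cuts aggrecan and versican and had the largest difference upward of all members. Adamts1 stood at 10.31, 9.64 and 10.22 on the BSM arrays, against 4.43, 4.24 and 4.69 on the BMDM arrays. Its BSM values were far above those of BMDM on every array, and BSM replicate 2 was the lowest of them. The difference was 5.60 (SE 0.20, 48.6-fold, adjusted p = 1.19e-07), and it was 5.37 in the Expression Console table. Its chromosomal neighbour Adamts5, an aggrecanase, averaged 4.62 ± 0.19 in BSM and 4.09 ± 0.11 in BMDM (SD, n = 3 each), a difference of 0.54 that was not called in the Expression Console table.

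Adamts16, a secreted protease of the family, was the other large difference. Its values were 7.79, 8.03 and 7.81 in BSM and 4.90, 4.85 and 4.90 in BMDM. The BMDM arrays were nearly level with each other and all lay below BSM. The difference was 2.99 (SE 0.11, 7.95-fold, adjusted p = 1.22e-07), against 3.07 in the Expression Console table. The other 13 Adamts genes called higher differed by 0.28 to 0.54.

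The 2 Adamts genes called lower did not reach 2-fold in the Aroma table and are named after their values were seen. Adamts3, which removes the propeptide of procollagen and helps to activate a lymphatic growth factor, measured 4.57, 4.18 and 4.18 in BSM and 5.46, 5.26 and 5.06 in BMDM, a difference of -0.96 (SE 0.15, adjusted p = 0.000998). Adamts10, which binds fibrillin, measured 6.55, 6.60 and 6.61 in BSM and 7.30, 7.25 and 7.22 in BMDM. Both were lower on every BSM array, and for Adamts10 the difference of -0.67 (SE 0.09, adjusted p = 0.00045) became -1.16 in the Expression Console table.

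**Figure D2:**
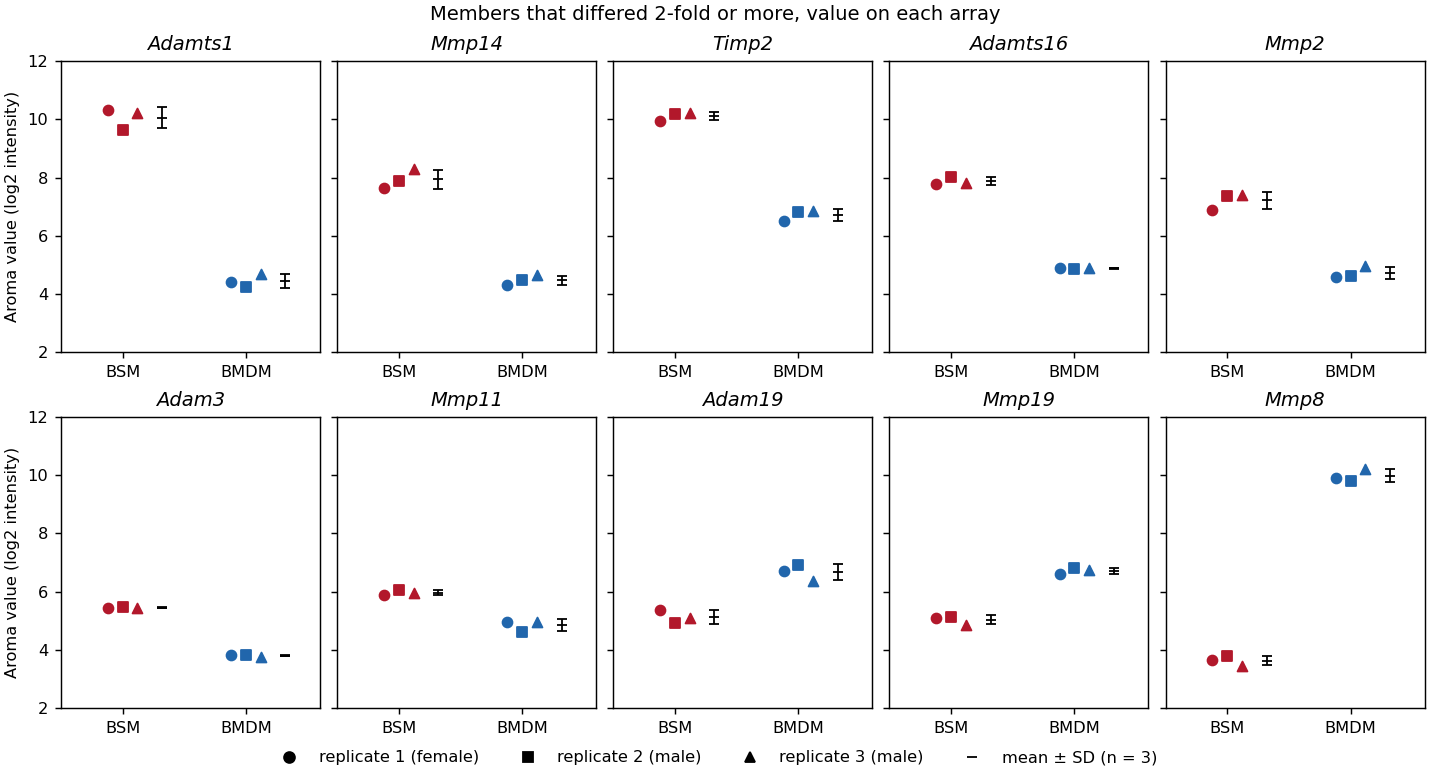
Log2 intensity on each array (y axis) of the 10 members that were called and differed by at least 2-fold, with BSM in red left of BMDM in blue. Symbols are replicates and the bars beside them are mean ± SD of 3 arrays, and in none of these genes do the cell types overlap.

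Among the 22 Mmp genes, 10 were higher, 5 were lower and 7 were not called, with a median difference of 0.30. The shares of all rows were 28.0% higher and 21.6% lower. After centring, 7 Mmp genes were higher and 5 lower, against 14.9% and 26.5% of all rows. The Expression Console table held 20 Mmp genes, of which 3 were higher and 4 lower, against 8.38% and 20.5% of its rows. Of the 5 measured membrane-type enzymes, Mmp14 had the largest difference. Mmp14 encodes the membrane-bound collagenase that also activates pro-Mmp2 with the help of Timp2. It stood at 7.65, 7.88 and 8.28 on the BSM arrays, against 4.33, 4.47 and 4.65 on the BMDM arrays. The cell types were well apart, with a difference of 3.45 (SE 0.17, 10.95-fold, adjusted p = 8.84e-07). Its neighbours Mrpl52 and Lrp10 differed by -0.54 and -0.19.

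Mmp2, the gelatinase that cuts type IV collagen, was higher as well. Its values were 6.90, 7.37 and 7.39 in BSM and 4.58, 4.63 and 4.98 in BMDM. BSM replicate 1, the female pool, was the lowest BSM value but stayed above all BMDM arrays. The difference was 2.49 (SE 0.17, 5.61-fold, adjusted p = 6.56e-06), and 2.06 in the Expression Console table. The gene next to it, the lysophospholipid acyltransferase Lpcat2, differed by 4.23 in the same direction, whereas Irx6 on its other side differed by 0.25 (adjusted p = 0.0927).

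Mmp11, a stromelysin known from stromal tissue and activated inside the cell, measured 5.90, 6.06 and 5.94 in BSM and 4.97, 4.61 and 4.97 in BMDM. The cell types did not overlap, and the difference of 1.12 (SE 0.13, 2.17-fold, adjusted p = 0.000147) was 0.59 in the Expression Console table. Mmp15, a membrane-type enzyme, and Mmp12, the macrophage elastase, both differed by 0.78, and they are named after their values were seen. Mmp12 was dim at 4.74 in BSM and 3.96 in BMDM and was not called in the Expression Console table, which does not hold Mmp15. Mmp23 differed by 0.75, and Mib2, which overlaps it on the genome, by 0.90.

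Mmp8, the collagenase stored in neutrophil granules, had the largest measured difference of the 72 members. Mmp8 stood at 3.65, 3.78 and 3.46 on the BSM arrays, against 9.90, 9.80 and 10.22 on the BMDM arrays. The BSM values were among the dim rows of the arrays, and the gap to BMDM was wide on every array. The difference was -6.34 (SE 0.14, 81.1-fold lower, adjusted p = 1.77e-08), and -6.602 in the Expression Console table. Since dim levels include background and no detection call was given, the size of this fold is limited by the level of the dim BSM values. The same limit holds for the other members that differed at least 2-fold, except Timp2. In each of them the lower mean lay below the median level of all rows (5.63).

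Mmp8 lies in a run of 10 consecutive Mmp genes on chromosome 9, all of which were measured. The other 9 genes did not share its pattern. Their BSM minus BMDM differences were positive, between 0.20 for Mmp13 and 0.78 for Mmp12, and none averaged above 4.84 in BSM or 4.36 in BMDM. Called higher were 4 of them, beside 28.0% of all rows. Of these 4, Mmp3, Mmp10 and Mmp12 were not called in the Expression Console table, which does not hold Mmp27. After centring, Mmp3 and Mmp27 were not called. The genes on either side of Mmp8, Mmp10 and Mmp27, differed by 0.57 and 0.37. The median of these arrays over all rows was shifted by 0.18 in the same direction.

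**Figure D3:**
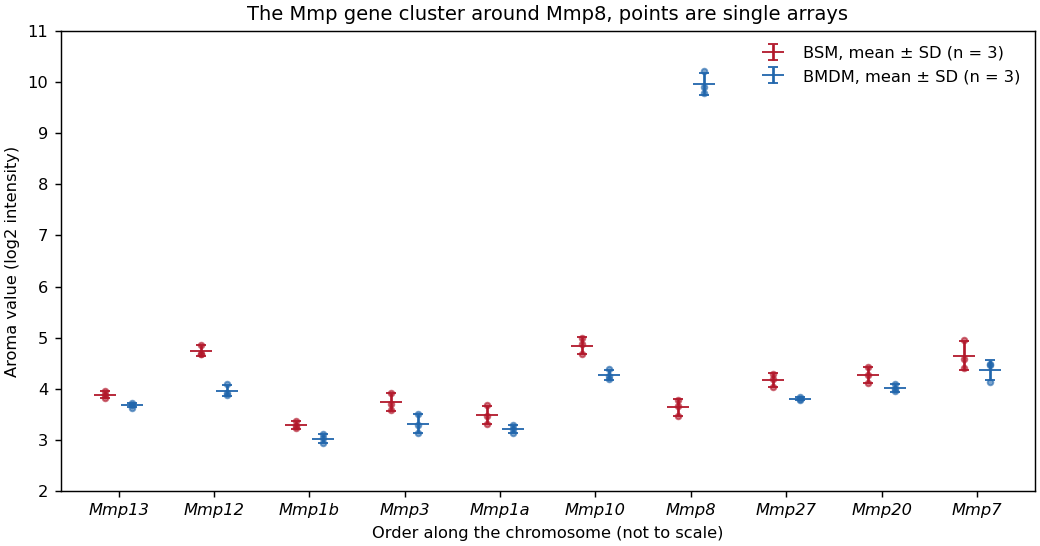
Log2 intensity (y axis) of the 10 genes of the Mmp cluster in chromosomal order (x axis, not to scale), BSM in red left of BMDM in blue, with points for single arrays and bars for mean ± SD. Only Mmp8 in BMDM, at 9.80 to 10.22, stands clear of the low levels of the cluster.

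Mmp19, a secreted protease of basement membranes, was the other Mmp gene lower by at least 2-fold. It measured 5.11, 5.14 and 4.86 in BSM and 6.61, 6.81 and 6.74 in BMDM. The cell types were apart on every array, with a difference of -1.69 (SE 0.12, 3.22-fold lower, adjusted p = 7.44e-06). Tmem198b overlaps Mmp19 on the genome and differed the other way, by 0.74. The flanking genes Pym1 and Dnajc14 were called lower, with differences of -0.87 and -0.67.

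The remaining called decreases, Mmp25, Mmp28 and Mmp9, were below 2-fold and are named after their values were seen. Mmp25, a membrane-anchored enzyme of leukocytes, measured 4.996, 4.81 and 4.84 in BSM and 5.70, 5.79 and 5.95 in BMDM, a difference of -0.93 (SE 0.11, adjusted p = 0.000198). Mmp28, or epilysin, differed by -0.72 (SE 0.14), and the overlapping transcript 1700020L24Rik differed by -1.81. Of 17 settings Mmp28 was tested in all and Mmp25 in 15, without the Expression Console table and the filter on dim rows, and both kept their calls where tested, while Mmp9 did not.

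Mmp9, the other gelatinase and a granule enzyme of neutrophils, measured 5.11, 4.86 and 4.97 in BSM and 5.17, 5.74 and 5.99 in BMDM. All BMDM arrays were above BSM, but the female BMDM pool exceeded the female BSM pool by very little. The difference was -0.65 (SE 0.20, adjusted p = 0.0266), and -0.93 in the Expression Console table, where it was also called. It was -0.06 between the female pools and -0.95 between the male pools. The female value rests on 1 array of each cell type, and the female pools were also of a different collected set from the male pools. The limma term for sex by cell type therefore does not settle whether the sexes differed. The call was lost without BSM replicate 2 or 3, without BMDM replicate 2 or 3 and in the methods' t-test, with differences in all settings between -0.95 and -0.47.

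Genes of neutrophils and their granules are given beside the Mmp8 and Mmp9 values. Of 11 measured neutrophil and granule markers, 10 were lower in BSM and Csf3r was higher. The mean log2 level of the list ran from 5.09 to 5.45 on the BSM arrays and from 8.53 to 9.14 on the BMDM arrays. Ly6g, whose protein was excluded by the sort, stood at 3.52, 3.55 and 3.52 in BSM and 3.90, 4.82 and 5.80 in BMDM, and Ltf of the secondary granules stood at 4.75, 4.62 and 4.35 in BSM and 6.11, 6.59 and 7.52 in BMDM. Ly6g, Ltf and Mmp9 were thus lowest in BMDM replicate 1 and highest in BMDM replicate 3. Mmp8 did not share this order, as it was lowest in BMDM replicate 2, and S100a8 and S100a9 were highest in BMDM replicate 2. The primary granule enzyme Mpo had the order opposite to that of Mmp9. Mpo stood at 4.62, 4.50 and 4.50 in BSM and 12.01, 11.82 and 11.09 in BMDM. In BMDM the order of Mmp9 was also that of erythroid genes, with Hbb-b1 at 5.92, 7.89 and 7.20 in BSM and 12.29, 12.60 and 12.91 in BMDM. Of 4 erythroid markers measured, 3 were lower in BSM, and the mean level of the list ran from 5.47 to 5.90 in BSM and from 7.40 to 8.07 in BMDM. The part of granulocytic or erythroid cells in the Mmp8, Mmp9 and Mmp25 values was not tested.

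Of the 4 inhibitors, Timp2 was called higher in BSM and the others were not called. Timp2 stood at 9.96, 10.18 and 10.22 on the BSM arrays, against 6.50, 6.82 and 6.86 on the BMDM arrays. All BSM arrays were above all BMDM arrays by a wide margin. The difference was 3.39 (SE 0.13, 10.5-fold, adjusted p = 2.39e-07), and 3.13 in the Expression Console table. Timp2 is the inhibitor that takes part in the activation of pro-Mmp2 by Mmp14, so the 3 genes of that step were all higher in BSM, by 3.39, 2.49 and 3.45 for Timp2, Mmp2 and Mmp14.

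Timp3, the matrix-bound inhibitor that also blocks ADAM and ADAMTS enzymes, measured 4.42, 4.31 and 4.23 in BSM and 4.94, 4.23 and 4.52 in BMDM. The cell types overlapped, with a difference of -0.25 (SE 0.18, adjusted p = 0.265). Timp1 measured 4.15, 3.99 and 3.48 in BSM and 3.86, 3.55 and 3.68 in BMDM, a difference of 0.18 (adjusted p = 0.43) whose sign turned with the scaling and in the Expression Console table. Timp4 measured 6.12, 5.37 and 5.63 in BSM and 5.48, 4.93 and 5.58 in BMDM, a difference of 0.38 (adjusted p = 0.193). On the genome these 3 genes overlap the synapsin genes Syn3, Syn1 and Syn2, of which Syn1 was called higher by 0.40.

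Markers of other brain cells stood beside the members that were higher in BSM. None of the 6 fibroblast markers was called, and their mean level ran from 4.66 to 4.83 in BSM and from 4.39 to 4.74 in BMDM. No endothelial or mural marker of 6 was higher and 1 was lower, with mean levels of 4.70 to 4.89 in BSM and 4.88 to 4.96 in BMDM. Of 6 astrocyte markers 3 were higher and 1 lower (4.76 to 5.02 in BSM, 4.60 to 4.63 in BMDM). Of 5 oligodendrocyte markers 2 were higher and 2 lower (5.74 to 5.89 in BSM, 5.55 to 5.69 in BMDM). In each of these 2 lists 1 marker was higher by at least 2-fold. Of 5 neuron markers 1 was higher, Snap25 with a difference of 0.70, and 1 was lower (4.70 to 4.74 in BSM, 4.51 to 4.52 in BMDM). Of 6 border macrophage markers 2 were higher, Lyve1 by 1.29 (SE 0.18) and Mrc1 by 0.58. Cbr2 and Clec4n were lower, with differences of -0.41 and -0.48, and 2 were not called. The mean level of this list ran from 5.58 to 5.70 in BSM and from 5.36 to 5.50 in BMDM. Over all rows, 28.0% were called higher and 21.6% lower. The part of such cells in the members' values was not tested.

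The tables gave no opposite calls. Of 57 members measured in both, 55 differed in the same direction, 15 were called in both and in the same direction, and 24 were called higher in the Aroma table only. The exceptions in direction were Adam11 and Timp1, neither of which was called. No member called lower in the Aroma table and measured in both lost its call in the Expression Console table. A further 15 members were in the Aroma table only and 4 in the Expression Console table only.

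**Figure D4:**
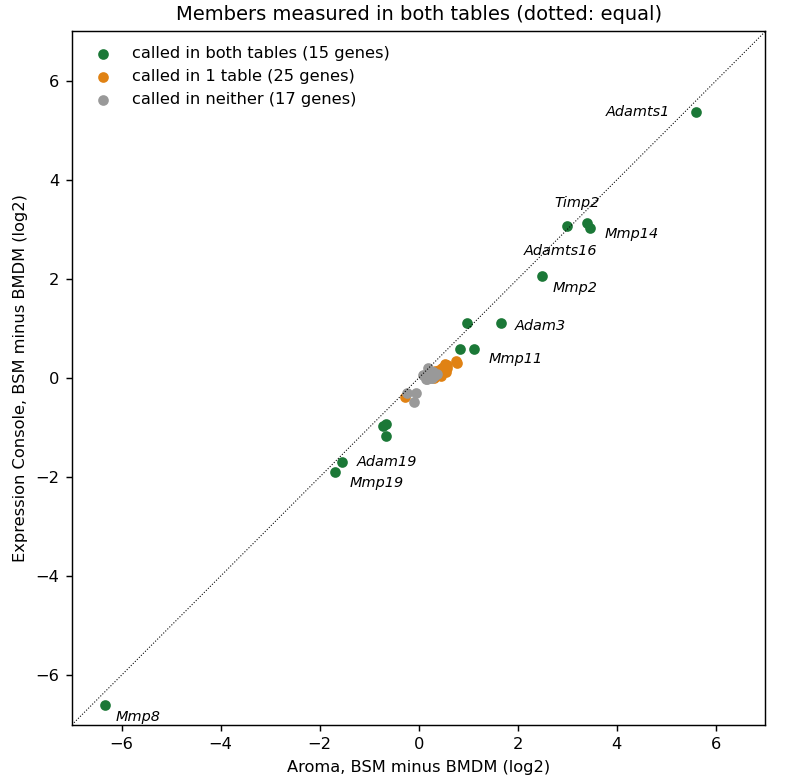
BSM minus BMDM differences on the log2 scale of the 57 members in both tables, Aroma on the x axis and Expression Console on the y axis, with the dotted line where they are equal. The named members, all at least 2-fold apart in the Aroma table, have the same sign in both. The 24 members called higher in the Aroma table only lie closer to 0 on the y axis than on the x axis.

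The enzymes work with partners that activate, carry or clear them. Of 29 such genes measured, 15 were higher and 8 lower in BSM, with a median difference of 0.28 beside 0.18 over all rows, of which 28.0% were called higher and 21.6% lower. The Expression Console table held 25 of the partners, with 7 higher and 7 lower, beside 8.38% and 20.5% of its rows. The plasminogen activator gene Plau, whose product starts a protease cascade that activates MMPs, was higher by 1.90 (SE 0.15, adjusted p = 1.56e-05), whereas its receptor Plaur was lower, at 6.68, 6.64 and 6.82 in BSM and 9.90, 9.69 and 9.73 in BMDM. The Plaur difference was -3.06 (SE 0.11, adjusted p = 1.21e-07), and the cell types were far apart.

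The tetraspanins that escort Adam10 to the surface moved in both directions. Tspan14 was higher by 1.01 and Tspan33 by 1.01, while Tspan17 and Tspan5 were lower, with differences of -1.76 and -1.63. Of the inactive rhomboid proteins that carry Adam17, Rhbdf1 was higher, with a difference of 1.06, and Rhbdf2 lower, with one of -1.04. Reck, a membrane-anchored inhibitor of several MMPs, differed by 0.97, the endocytic receptor Lrp1 by 0.88, and Furin, which removes the propeptide of many of these enzymes, by -0.50, and these last 3 were named after their values were seen.

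Of 25 measured membrane proteins that are known to be shed, 10 were higher and 8 lower in BSM, and the median difference was 0.08. Over all rows, 28.0% were called higher and 21.6% lower, and the median difference was 0.18. The Expression Console table held 24 of the shed proteins, with 7 higher and 7 lower, beside 8.38% and 20.5% of its rows. The phagocytic receptor Mertk had the largest difference of them, 7.13 (SE 0.11), followed upward by Lag3 (3.94), the microglial receptor Trem2 (3.67), the chemokine Cxcl16 (2.91) and Csf1r (1.98). Csf1r transcripts were thus higher in the cells that the study's results describe as low in CD115, the protein of that gene. The growth factor receptor Met (-5.27), the hyaluronan receptor Cd44 (-4.30) and the growth factor Nrg1 (-3.13) were lower. Tnf was not called (0.54, SE 0.25, adjusted p = 0.106).

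**Figure D5:**
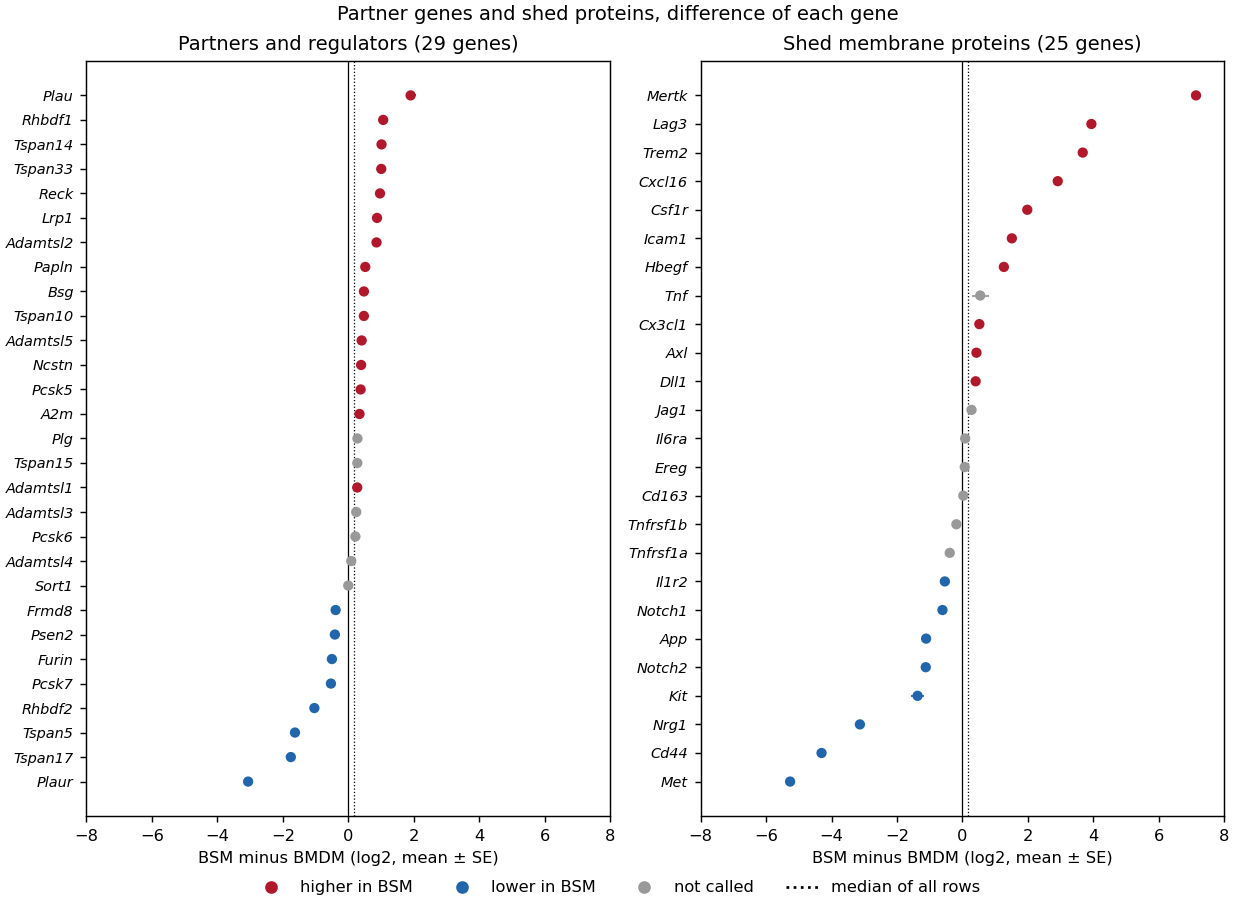
BSM minus BMDM difference on the log2 scale with the limma standard error (x axis) for 29 partner and regulator genes and 25 shed membrane proteins. Red points were called higher in BSM, blue points lower and grey points were not called, and the points run from -3.06 for Plaur to 1.90 for Plau on the left and from -5.27 for Met to 7.13 for Mertk on the right.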

How the data were processed

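Gene expression was measured on 6 arrays, 3 of BSM and 3 of BMDM, and the authors deposited each array in 2 summaries, which were never pooled. The Aroma table holds linear intensity values that the authors made with RMA background correction, then quantile normalization, then a model of log-additive probe effects. In the Expression Console table are log2 values, which the authors deposited after RMA. Neither carries a detection call, so dim levels include background. All per-sample columns were used.

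The log2 of the Aroma intensities was tested two-sided in limma 3.58.1 under R 4.3.3 (lmFit, then eBayes) without filter or covariate, with Benjamini-Hochberg adjustment over all 21837 rows at an adjusted p of 0.05. The steps were checked on simulated data. P-values measure the spread between separately collected pools. Members and lists were chosen with earlier results of these data known. Named genes were members called with a log2 difference of at least 1, the Timp genes, members at a mean level of at least 8, and up to 8 called genes of each list. Symbols, gene order and promoters came from RefSeq (GRCm38.p6). 4 rows with several symbols were not used.

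Alternatives were the Expression Console table, quantile normalization again, median centring, a filter on dim rows, the replicate block, sex as a covariate, male pools only, the mean of a gene's rows, eBayes with trend and robust settings, the methods' t-test and leaving out each array. A term for sex by cell type was added after seeing the data.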

Additional observations from a re-analysis of the deposited data

How the results depend on the processing

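The 40 calls higher in BSM were the part that depended on processing. They numbered 9 in the Expression Console table, 15 when quantile normalization was repeated, 15 with arrays centred on their medians, 8 with rows below the median level removed (which leaves 15 members) and 17 with the male pools only (2 arrays a cell type). Leaving out 1 array at a time gave 19 to 31, with 25 without BSM replicate 1, 22 without BMDM replicate 1 and 19 without BMDM replicate 2. The 8 calls lower in BSM became 5 with the filter on dim rows, which removed Adamts3, Mmp9 and Mmp25 before testing. Every member called in the main test, higher or lower, that the filter left in kept its call. The 3 members lower by 2-fold or more became 5 with quantile normalization and 5 with centred arrays. The Timp1 difference turned to -0.027 in the Expression Console table, and was -0.042 with quantile normalization and -0.015 with centring (adjusted p in limma 0.95, 0.869 and 0.959). Timp3 was called lower only with quantile normalization (-0.48, adjusted p = 0.0482). The cause of these changes was not tested beyond what each setting removes by construction.

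With the replicate block, 29 members were higher and 8 lower, and 7 and 3 at 2-fold or more. Deviations of same-numbered arrays correlated at 0.065, 0.002 and 0.011 across rows, so the numbers were not taken to pair the pools. The methods' t-test with Benjamini-Hochberg adjustment gave 30 higher and 7 lower.

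The median difference of all rows was 0.18 as deposited, 0.04 with quantile normalization again and -0.01 after centring. With 3 arrays a cell type and no detection call, differences of dim genes that are near this shift cannot be told apart from it.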
